A study of Mus musculus with 6 samples.

Results

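The genes described here are 7 genes of the Hes and Hey branch of Notch signalling, chosen by name: the Hey genes Heyl, Hey1 and Hey2, the Hes genes Hes1 and Hes6, the feedback inhibitor Nrarp and the DNA-binding partner of the pathway, Rbpj. They are 7 of the 49548 genes in the deposited table, and all 7 were among the 26402 genes that could be tested, those whose normalized counts summed to at least 1. The data are 3′ mRNA sequencing of cells sorted from colonic adenomas as fibroblasts. They are GFP+ cells (Col6a1+ CAFs, 3 libraries) and Tomato+ cells (Col6a1- CAFs, 3 libraries), where CAF stands for cancer-associated fibroblast. All mice carried Col6a1-cre and Rosa26-mTmG on the C57/BL6 strain, and all received azoxymethane (AOM), a carcinogen, at 8 to 10 weeks of age and then 3 cycles of 2.5% dextran sodium sulfate (DSS), which injures the colon lining. No group without tumors or without these agents was analysed here. Each library came from a pool of adenomas of 5 to 6 mice, so the error given is the spread between pools. The authors state 3 samples in all, so a GFP+ and a Tomato+ library may share a pool, which the labels do not say. The test without a replicate block treats the 6 libraries as separate pools. Cells with CD45, EpCAM, CD31 or Ter119 on their surface were removed in the sort. In mTmG mice, Cre recombination turns membrane Tomato off and membrane GFP on for good, so GFP marks cells with present or past activity of Col6a1-cre, while Tomato+ cells are all remaining cells of the gate. According to the authors, Col6a1-cre is active mostly in perivascular cells and in fibroblasts with high PDGFRα, so the GFP+ cells include pericytes. Col6a1 itself had 861, 1287 and 1941 normalized counts in the Col6a1+ libraries and 182, 321 and 102 in the Col6a1- libraries, without overlap.

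Notch is a receptor that is cut when it binds a ligand on a neighbouring cell. The released intracellular domain enters the nucleus and binds RBPJ, a DNA-binding protein that otherwise recruits repressors, and turns on target genes. The Hes and Hey genes are the best known of these targets and encode basic helix-loop-helix repressors. HEY proteins and HEYL are known from the walls of blood vessels, where pericytes and smooth muscle cells depend on NOTCH3, whereas HES1 is expressed in many tissues, including the intestinal epithelium, where it keeps progenitors from becoming secretory cells. HES6 is a relative that is not switched on by Notch in most settings and can oppose HES1.

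Heyl, Hey1, Hey2 and Nrarp were higher in Col6a1+ CAFs, Hes6 was lower, and no difference was called for Hes1 or Rbpj. Thus 4 of the 7 genes rose and 1 fell at an adjusted p under 0.05, where 2.66% of all genes tested were called higher and 1.96% lower (4.62% in either direction). The 7 genes were chosen with earlier results of these data known, so the shares here are a description and not a test. Among genes averaging 10 or more normalized counts, these shares were 5.15% and 3.67%. By the looser criterion of an absolute log2 fold change over 1 together with an unadjusted p under 0.05, again 4 genes were higher and 1 lower, beside 6.09% and 8.61% of all genes. The same 5 genes were those whose libraries did not overlap between the subsets, which held for 7.91% of all genes tested in the higher and 11.6% in the lower direction. Every difference is given as a log2 fold change, the Col6a1+ mean of log2(normalized count + 1) minus the Col6a1- mean, with its standard error (SE), and was tested with limma over all 26402 genes. Over all genes tested, this difference had a median of -0.27. When the replicate number was a block in the model, no gene of the table was called, and the adjusted p of the 5 genes lay between 0.0612 and 0.122. The value 0.0612 is a tie that the adjustment gave to many genes, so it does not rank them. Heyl, Nrarp and Hes6 share it, with unadjusted limma p-values of 4.49e-05, 1.48e-04 and 5.91e-04 in that fit. The unadjusted p of all 5 stayed under 0.05 with the block, as it did for 1851 higher and 2567 lower genes of the table. With the block and only the genes averaging 10 or more, the 5 genes were called again, beside 7.26% of genes called higher and 6.44% called lower. Heyl and Hey2, at 0 or 1 in each Col6a1- library, passed that filter only through the Col6a1+ libraries. For them this fit is therefore no separate support.

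**Figure D1:**
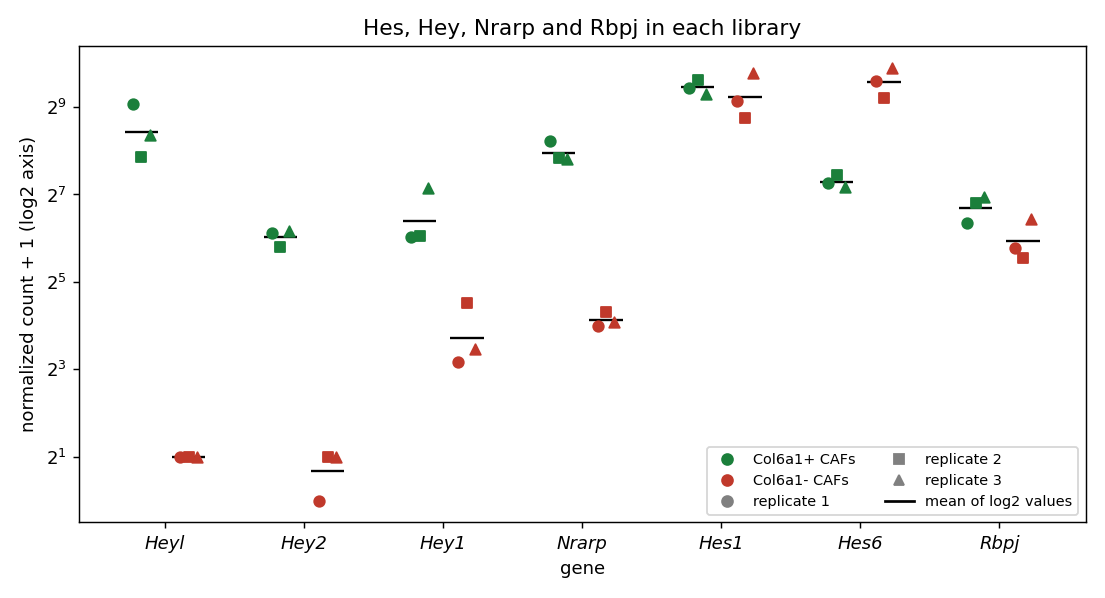
Normalized count plus 1 on a log2 axis for each of the 7 genes, with 1 point per library, green for Col6a1+ and red for Col6a1- CAFs, a marker shape per replicate and a black bar at the mean of the log2 values. The points of Heyl, Hey2, Hey1 and Nrarp lie higher in green, those of Hes6 lie higher in red, and those of Hes1 and Rbpj overlap.

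Heyl (ENSMUSG00000032744, chr4:123233556-123249875 on the plus strand of mm10) encodes a HEY-like repressor and showed the widest separation of the 7 genes. It had 534, 229 and 325 normalized counts in Col6a1+ replicates 1, 2 and 3 and 1 normalized count in each Col6a1- library. All 3 Col6a1+ libraries were therefore far above all 3 Col6a1- libraries, in which the gene was at the limit of detection. The log2 fold change was 7.42 (SE 0.61, 95% interval 6.07 to 8.76, adjusted p = 3.56e-04, 0.0612 with the block). It was the 4th largest log2 fold change of all genes tested and the 11th by p. With the values turned back into reads, 1141 reads stood against 3 or 4, a ratio of 402 (95% counting interval 137 to 1950) or 301 (117 to 1110). These ratios take 1 read of Col6a1- replicate 2 as about 1 normalized count, which its low values did not settle, and their intervals cover counting error only. Heyl was the only one of the 7 genes that was called in each of the 6 fits that left out 1 library, with log2 fold changes of 7.10 to 7.71.

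Hey2 (ENSMUSG00000019789, chr10:30832359-30842801 on the minus strand) encodes a HEY repressor known from arteries and the heart. In Col6a1+ CAFs it had 68, 55 and 71 normalized counts, and in Col6a1- CAFs 0, 1 and 1. The Col6a1+ libraries were close to each other, at 64.7 ± 8.5 (SD, n = 3), and none of the Col6a1- libraries held more than 1. Its log2 fold change was 5.36 (SE 0.85, 95% interval 3.48 to 7.25, adjusted p = 0.00641, 0.0656 with the block). In reads, 199 (or 197, by the rounding) stood against 2, a ratio of 105 (95% counting interval 28.7 to 874). Leaving out Col6a1+ replicate 3, Col6a1- replicate 1 or Col6a1- replicate 3 ended the call, with adjusted p-values of 0.058, 0.0643 and 0.0603, while the log2 fold change stayed between 5.03 and 5.53.

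The RefSeq promoter of Hey2 is shown because Notch acts on its targets through the letters TGGGAA, the core of the site that RBPJ binds, and this window holds them in 2 places. It covers chr10:30842754-30843033 of GRCm38.p6 (mm10) on the minus strand, from 250 bases before the transcription start at 30842783 to 30 bases after it, with TGGGAA of either strand in capitals (TTCCCA is TGGGAA on the other strand):
Hey2: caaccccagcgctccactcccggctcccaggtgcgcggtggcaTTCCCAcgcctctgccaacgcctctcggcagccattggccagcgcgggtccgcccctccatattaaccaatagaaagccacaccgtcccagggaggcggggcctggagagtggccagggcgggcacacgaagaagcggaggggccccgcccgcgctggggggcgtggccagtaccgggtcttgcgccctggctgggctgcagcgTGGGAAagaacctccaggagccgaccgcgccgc
The first match begins at -207 from the start, on the other strand, and the second at -3, on the strand of the gene. TGGGAA was found in 25.6% of the 32851 RefSeq promoters, searched on both strands from 250 bases before to 50 after the start, and at least 2 times in 3.79% of them. A match is a stretch of letters and not a measured binding site.

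Hey1 (ENSMUSG00000040289, chr3:8663359-8667256 on the minus strand) encodes the third HEY repressor. It had 64, 65 and 140 normalized counts in Col6a1+ CAFs and 8, 22 and 10 in Col6a1- CAFs. The groups did not overlap, but each had 1 library well above the other two, Col6a1+ replicate 3 and Col6a1- replicate 2. The log2 fold change of 2.68 (SE 0.61, 95% interval 1.33 to 4.04) passed with an adjusted p of 0.0342, and the block raised it to 0.122. Hey1 was not called in any of the 6 fits that left out 1 library, in which the log2 fold change lay between 2.32 and 3.09 while the adjusted p was 0.0621, 0.109 and 0.191 when Col6a1+ replicates 1, 2 and 3 were left out and 0.138, 0.0846 and 0.166 when Col6a1- replicates 1, 2 and 3 were.

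Nrarp (ENSMUSG00000078202, chr2:25180758-25183339 on the plus strand) encodes a small ankyrin-repeat protein that is induced by Notch and shuts Notch signalling down in turn. It had 298, 227 and 222 normalized counts in Col6a1+ CAFs and 15, 19 and 16 in Col6a1- CAFs. Both groups were tight, with 249 ± 42.5 against 16.7 ± 2.08 (SD, n = 3 each), a 14.9-fold difference of the means. The log2 fold change was 3.82 (SE 0.41, 95% interval 2.92 to 4.72, adjusted p = 0.00125, 0.0612 with the block). Leaving out 1 library kept it between 3.68 and 3.91, and the call was lost only without Col6a1- replicate 1 (adjusted p = 0.0503). A gene on the opposite strand that overlaps it, Gm38287, had 4 normalized counts in Col6a1+ replicate 2 and 0 in the other libraries.

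The promoter of Nrarp is shown beside that of Hey2 because the gene was higher as well, yet its window holds no TGGGAA. It spans chr2:25180508-25180787 of GRCm38.p6 on the plus strand around the start at 25180758. Capitals mark CACGTG, a box that HES and HEY proteins are known to bind, and CACNAG, the N box, on either strand:
Nrarp: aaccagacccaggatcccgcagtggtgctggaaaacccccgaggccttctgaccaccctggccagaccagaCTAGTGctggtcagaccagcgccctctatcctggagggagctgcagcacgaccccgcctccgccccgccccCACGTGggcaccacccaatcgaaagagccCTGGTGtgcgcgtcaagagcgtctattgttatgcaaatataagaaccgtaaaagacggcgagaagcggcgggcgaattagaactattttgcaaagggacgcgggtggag
CACGTG begins at -108 and was found in 7.15% of the RefSeq promoters. The N box occurs 2 times, at -179 and -79, both on the other strand, where 42.5% of promoters hold at least 1 and 11.3% hold 2 or more. CACGCG, a further box bound by these proteins, was in 9.27% of promoters and in none of the 6 promoter windows that matched 4 of the 7 genes (Hey2, Nrarp, Hes6 and Rbpj).

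Hes6 (ENSMUSG00000067071, chr1:91411483-91414038 on the minus strand) was the only one of the 7 genes that fell. It had 153, 174 and 142 normalized counts in Col6a1+ CAFs and 769, 590 and 955 in Col6a1- CAFs. The lowest Col6a1- library was far above the highest Col6a1+ library, and the means of 771 ± 183 and 156 ± 16.3 (SD, n = 3 each) gave a 4.93-fold higher level in Col6a1- CAFs. Its log2 fold change was -2.27 (SE 0.30, 95% interval -2.94 to -1.61, adjusted p = 0.00252, 0.0612 with the block). The call was lost when Col6a1- replicate 1 or 3 was left out (adjusted p = 0.0732 and 0.0548), while the log2 fold change stayed between -2.45 and -2.11.

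The RefSeq promoter of Hes6 at the start that matches the gene's end in the table, 91414038, is printed as the one of the gene that moved the other way. It spans chr1:91414009-91414288 of GRCm38.p6 on the minus strand and has no capitals, since none of the 4 motifs searched was found in it:
Hes6: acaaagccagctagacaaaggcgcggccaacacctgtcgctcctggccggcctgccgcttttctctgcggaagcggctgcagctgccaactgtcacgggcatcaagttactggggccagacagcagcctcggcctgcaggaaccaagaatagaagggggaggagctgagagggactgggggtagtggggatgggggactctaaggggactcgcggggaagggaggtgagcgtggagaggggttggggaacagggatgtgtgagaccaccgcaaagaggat
A second RefSeq start of Hes6, at 91413222, has the N box 2 times, at -237 and 16, and none of the other motifs.

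Hes1 (ENSMUSG00000022528, chr16:30064384-30067796 on the plus strand), the most widely used Hes readout of Notch, had 686, 789 and 632 normalized counts in Col6a1+ CAFs and 558, 429 and 877 in Col6a1- CAFs. The Col6a1+ libraries lay within the range of the Col6a1- libraries. The means were 702 ± 79.8 and 621 ± 231 (SD, n = 3 each), with a log2 fold change of 0.23 (SE 0.32, adjusted p = 0.684). Its 95% interval of -0.47 to 0.94 leaves room for a change in either direction and ends below the intervals of Heyl, Hey2, Hey1 and Nrarp, the lowest of which begins at 1.33.

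Rbpj (ENSMUSG00000039191, chr5:53466152-53657362 on the plus strand) had 81, 111 and 121 normalized counts in Col6a1+ CAFs and 54, 46 and 86 in Col6a1- CAFs. The groups overlapped by 1 pair of libraries, Col6a1+ replicate 1 at 81 and Col6a1- replicate 3 at 86. The means of 104 ± 20.8 and 62 ± 21.2 (SD, n = 3 each) gave a log2 fold change of 0.77 (SE 0.42, 95% interval -0.16 to 1.70, adjusted p = 0.423). Its pseudogenes Rbpsuh-rs3 and Rbpsuh-ps1 had at most 4 and 1 normalized counts in any library, and the overlapping Gm10441 and Gm42747 on the other strand had 0 in all. Of the RefSeq starts of Rbpj that matched, the one at 53590346 has TGGGAA 2 times and the one at 53590486 has it 1 time, within windows that share bases.

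**Figure D2:**
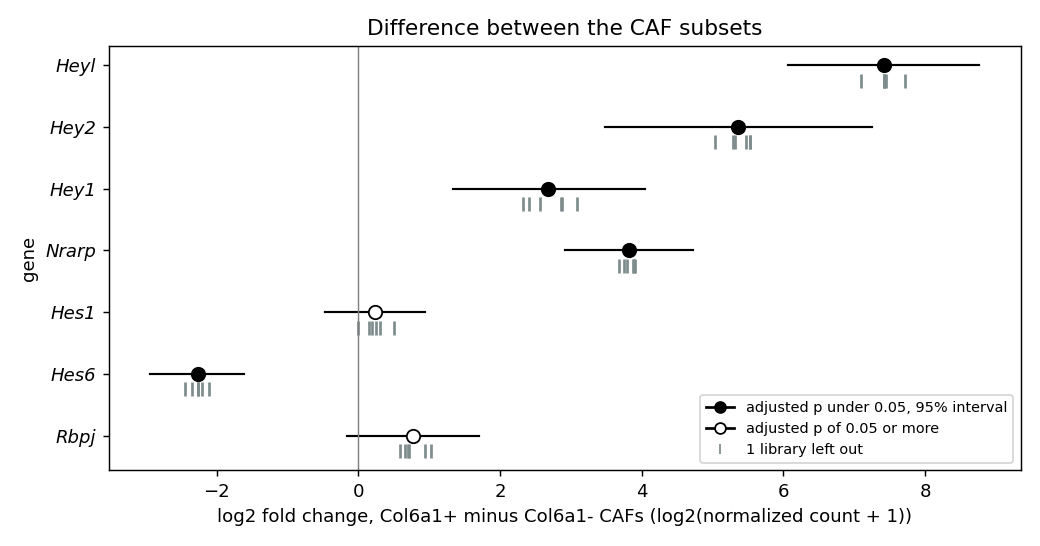
Log2 fold change of each gene (Col6a1+ minus Col6a1- CAFs, on log2(normalized count + 1)) with its 95% interval from limma, as filled circles at an adjusted p under 0.05 and open circles otherwise, and grey ticks for the 6 fits that left out 1 library. Heyl, Hey2, Hey1 and Nrarp lie to the right of 0, Hes6 lies to the left, and the intervals of Hes1 and Rbpj cross 0.

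The other genes of the pathway were read from the same fit, in lists that were also chosen with earlier results of these data known. Of 98 listed symbols, 1 had no row in the table (Tle5, a later name of Aes, which is listed too) and 6 had no count in any library, which left 91 genes tested. Of these, 8 were called higher (8.79%) and 3 lower (3.3%), beside 2.66% and 1.96% of all genes, with a median log2 fold change of 0.14. With the block none of the 91 was called. Of them, 18 higher and 6 lower genes had an unadjusted p under 0.05 in that fit, beside 1851 and 2567 of all 26402 genes. With the block over genes averaging 10 or more, 9 of 78 were called higher and 3 lower, beside 7.26% and 6.44% of all such genes. The number called depended on single libraries, with 6, 8 and 5 higher and 1, 1 and 0 lower without Col6a1+ replicates 1, 2 and 3, and 2, 4 and 3 higher and 0 lower without Col6a1- replicates 1, 2 and 3.

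Among the 4 receptors, Notch3, the receptor of mural cells, rose from 141, 75 and 43 normalized counts in Col6a1- CAFs to 4826, 3159 and 5036 in Col6a1+ CAFs (log2 fold change 5.77, SE 0.42, adjusted p = 1.97e-04, 0.0612 with the block). The other three, Notch1, Notch2 and Notch4, were not called, and their log2 fold changes were 0.90, 1.32 and 1.24. Of the 9 ligands tested, 1 was called, Jag1, a ligand that is also a target of Notch in vascular smooth muscle. It had 1121, 447 and 478 normalized counts in Col6a1+ CAFs and 69, 63 and 58 in Col6a1- CAFs (log2 fold change 3.28, SE 0.40, adjusted p = 0.0019, 0.0612 with the block). The median log2 fold change of the ligands was -0.33 and that of the receptors 1.28.

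Among the 10 genes of receptor cleavage, Adam10, the protease that makes the first cut after ligand binding, fell, with 106, 110 and 100 normalized counts in Col6a1+ and 299, 226 and 245 in Col6a1- CAFs (log2 fold change -1.27, adjusted p = 0.0488, 0.11 with the block). The 9 genes for glycosylation of the receptor and ubiquitination of the ligand held a pair of related E3 ligases that moved in opposite directions. Neurl1b rose, with 695, 423 and 421 normalized counts against 93, 146 and 86 (log2 fold change 2.23, adjusted p = 0.0064, 0.0765 with the block), and Neurl1a fell, with 0, 8 and 3 against 85, 64 and 67 (log2 fold change -4.46, adjusted p = 0.0217, 0.113 with the block). Of the 10 genes of receptor turnover, 2 rose, both ubiquitin ligase genes. Dtx3 had 921, 149 and 236 normalized counts against 65, 38 and 47 (log2 fold change 2.68, adjusted p = 0.0313, 0.0898 with the block), with Col6a1+ replicate 1 far above the rest, and Nedd4 had 1190, 1078 and 1589 against 474, 389 and 483 (log2 fold change 1.50, adjusted p = 0.0129, 0.0635 with the block).

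None of the 8 nuclear co-activators and none of the 19 co-repressors tested was called by limma, with median log2 fold changes of 0.06 and 0.11. None of the 6 further genes of the Hes family was called either, with a median of 0.50. In that family, Hes7, a gene of the segmentation clock, had 56, 8 and 17 normalized counts in Col6a1+ CAFs and 1, 1 and 4 in Col6a1- CAFs, and Hes5, a Notch target of the nervous system, had 0, 10 and 19 against 0, 1 and 0. Both were singled out after their values were seen, and neither passed (adjusted p = 0.165 and 0.369).

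Of the 14 tested genes that are Notch targets in other tissues, 5 rose (35.7%) and none fell, beside 2.66% and 1.96% of all genes. The median log2 fold change of this list was 0.49. Besides Notch3 and Jag1, the 5 genes were Pdgfrb, the growth factor receptor of pericytes and fibroblasts, Acta2, the smooth muscle actin, and Id3, a helix-loop-helix inhibitor that also responds to BMP. Notch3 and Pdgfrb are also mural markers and Acta2 a smooth muscle marker in the lists below, so these 3 do not stand apart from those lists. Pdgfrb had 2084, 1329 and 1612 normalized counts in Col6a1+ CAFs and 115, 89 and 58 in Col6a1- CAFs, for a log2 fold change of 4.28 (adjusted p = 3.36e-04, 0.0612 with the block). Acta2 ranged from 9411 to 20435 against 346 to 1701, a log2 fold change of 3.88 (adjusted p = 0.00353, 0.0957 with the block). Id3 had 13696, 7497 and 7820 against 3419, 2211 and 2630, a log2 fold change of 1.78 (adjusted p = 0.0129, 0.0612 with the block). Of the 6 tested genes that Hes proteins are known to repress, 1 was called, Cdkn1c, a cell cycle inhibitor, which had 15, 38 and 28 normalized counts against 145, 76 and 157 (log2 fold change -2.21, adjusted p = 0.0378, 0.152 with the block). Atoh1, which drives secretory differentiation of the gut epithelium, had 0, 7 and 0 against 3, 11 and 10 and was not called (adjusted p = 0.434).

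**Figure D3:**
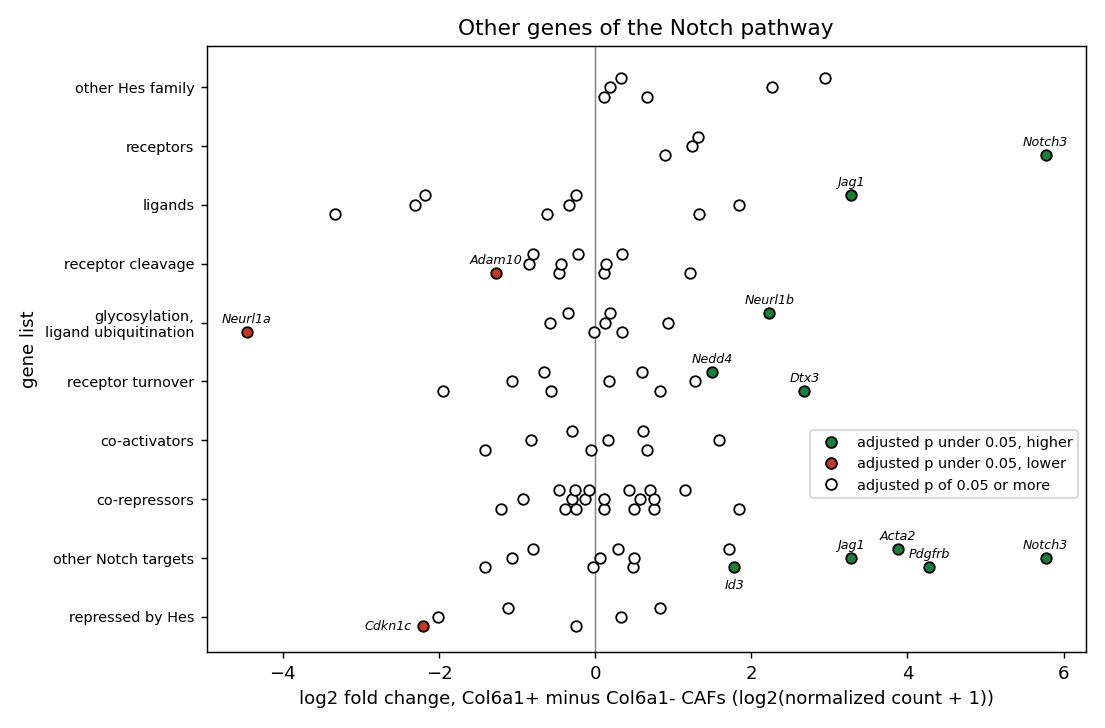
Log2 fold change (Col6a1+ minus Col6a1- CAFs, on log2(normalized count + 1)) of the other Notch pathway genes by list, 1 point per gene, green where called higher, red where called lower and open where not called, with small vertical offsets for legibility. The called genes are named, Notch3 and Jag1 appear in 2 lists each, and no gene of the co-activator and co-repressor lists is called.

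Markers of other cell types and of fibroblast subsets moved with the groups. All 10 mural cell markers, Notch3 and Pdgfrb among them, were called higher in Col6a1+ CAFs (median difference 5.74 on the log2 scale), and their summed normalized counts ranged from 41829 to 91448 against 1150 to 2142. Smooth muscle markers, with 6 of 8 called higher, summed to 12424 to 25074 against 478 to 2296. Pan-fibroblast markers, with 4 of 6 called higher, summed to 37468 to 41177 against 6799 to 13785, and Col1a1, the main collagen gene of fibroblasts, had at least 1590 in every library. The fibroblast subset markers went both ways, with 3 of 7 telocyte markers called higher (sums of 2721 to 4453 against 1274 to 1476) and 2 of 6 trophocyte markers called lower (1025 to 2081 against 2699 to 4444).

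Transcripts of lineages that the sort was set to remove were still counted. Of 12 epithelial markers, 9 were called lower in Col6a1+ CAFs, and their sum was 5925 to 6613 in Col6a1+ libraries and 20570, 34083 and 25454 in Col6a1- libraries, at most 1.04% of a library. Epcam, one of the markers of the sort, had 1074, 884 and 615 normalized counts against 3107, 4129 and 3730. Secretory and enteroendocrine markers, with 1 of 8 called lower (Muc2), summed to 45 to 420 against 658 to 3065, and Chga, Chgb and Neurod1 were at 0 in all Col6a1+ libraries. Of 12 endothelial markers, 2 were called higher, Tie1 and Esam, while the other 10 had negative log2 fold changes, none of them called, and the median was -1.59. Pecam1, the gene of CD31, had 0, 21 and 27 normalized counts against 13, 64 and 44. The endothelial sum was 1164 to 1570 against 542 to 710, but Esam made up 71.7 to 83.4% of it in Col6a1+ libraries and 5.76 to 13.1% in Col6a1- libraries, and without Esam the direction turned, to 193 to 445 against 488 to 622. The immune sum was 42 to 73 against 145 to 316 and the glial sum 55 to 73 against 29 to 76, with no marker called in either. No marker was called for erythroid cells (110 to 1710 against 279 to 467) or for proliferation (362 to 623 against 511 to 866).

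Set beside these sums library by library, the 5 called genes differed. These ratios were chosen after the values were seen and are given as descriptions. Per 1000 summed counts of the mural markers, Heyl had 5.47 to 6.87 in Col6a1+ and 0.467 to 0.87 in Col6a1- libraries. Heyl was thus higher in Col6a1+ CAFs on this scale too, though only 1 normalized count of Heyl lies behind each Col6a1- value here and below. Nrarp, in contrast, had 3.26 to 5.43 per 1000 of this sum in Col6a1+ and 7 to 13.9 in Col6a1- libraries, and Hey1 had 0.7 to 2.96 against 3.73 to 14.2. Hey2 overlapped, at 0.744 to 1.5 against 0 to 0.87 per 1000, with 0 or 1 count behind each Col6a1- value. The mural sum was carried by Rgs5 and Mcam in unequal shares, with Rgs5 at 46.1 to 70.9% of it in Col6a1+ and 23.8 to 45.3% in Col6a1- libraries and Mcam at 12.8 to 42.3% and 39.2 to 62.2%. Beside each of the 7 mural markers that had counts in every library, taken singly, the ratio of Heyl was higher in Col6a1+ CAFs without overlap for all 7. The other 3 of the 10 were not compared, because each was at 0 in a Col6a1- library. In Col6a1- CAFs, Higd1b had 0, 0 and 0, Cox4i2 0, 2 and 3, and Ndufa4l2 1, 5 and 0 normalized counts. The markers compared are therefore those with more counts in Col6a1- CAFs, and the result for Heyl does not extend to all 10. The ratios of Nrarp and of Hey1 were lower without overlap for 4 (Rgs5, Cspg4, Kcnj8 and Notch3) and overlapped for the other three (Pdgfrb, Mcam and Abcc9), so for these genes the order depended on the marker. That of Hey2 was higher for 3 and overlapped for 4.

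Per 1000 summed counts of the endothelial markers without Esam, Hey2 had 160 to 285 in Col6a1+ and 0 to 1.62 in Col6a1- libraries. Relative to the pan-fibroblast markers, Hey1 overlapped between the subsets, with 1.59 to 3.4 per 1000 against 0.58 to 1.62, and Heyl, Hey2 and Nrarp did not. Hes6 stayed lower in Col6a1+ libraries without overlap relative to the mural, full endothelial and pan-fibroblast sums. Per 1000 of the pan-fibroblast sum it had 3.45 to 4.27 against 43.5 to 140. For Hes6, the ratio to the epithelial markers was 21.5 to 27.4 per 1000 in Col6a1+ libraries and 17.3 to 37.5 in Col6a1- libraries, with overlap, where its own level had none. Within the Col6a1- CAFs the order of the libraries did not match, since replicate 2 had the highest epithelial sum and the lowest Hes6. The part of these other cell types in the differences was not tested. In such bulk libraries, more cells of a type and more RNA of a gene per cell cannot be told apart.

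**Figure D4:**
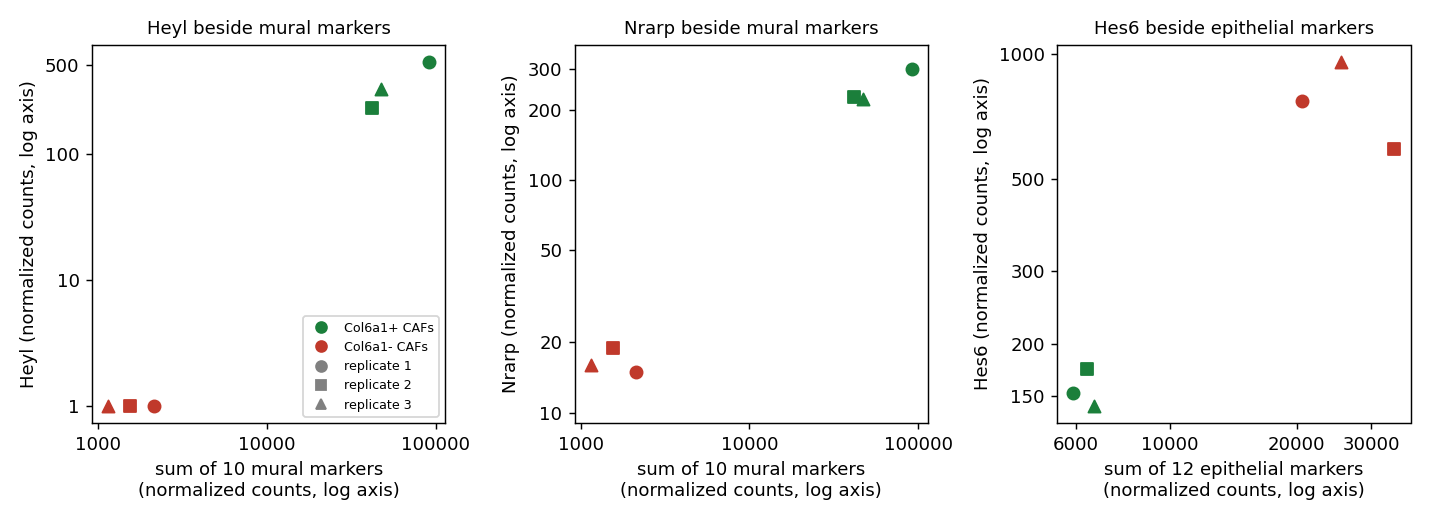
Normalized counts per library of Heyl and Nrarp against the sum of 10 mural markers and of Hes6 against the sum of 12 epithelial markers, on log axes, in green for Col6a1+ and red for Col6a1- CAFs with a marker shape per replicate. The 3 Col6a1+ libraries lie at the upper right in the Heyl and Nrarp panels and at the lower left in the Hes6 panel.

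Between libraries of the same subset the genes did not follow one order. Col6a1+ replicate 1 was the highest for Heyl and Nrarp and also for the mural sum, replicate 2 for Hes1 and Hes6, and replicate 3 for Hey1, Hey2 and Rbpj. In the Col6a1- CAFs, replicate 3 was the highest for Hes1, Hes6 and Rbpj, and replicate 2 for Hey1 and Nrarp. Col6a1+ replicate 1 also stood apart by having 14530 genes with at least 1 normalized count, against 18770 to 20511 in the other libraries. Without it, Heyl, Hey2 and Nrarp were called higher and Hes6 lower, with adjusted p-values of 0.015, 0.025, 0.0173 and 0.023, and Hey1 was not called.

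The genes with the most similar pattern over the 6 libraries were sought by Pearson's r of log2 values among the other genes averaging 50 or more normalized counts (8436, or 8437 for Hey2). This likeness mostly reflects the difference between the subsets, since 321 genes had r over 0.95 with Heyl, 310 with Nrarp, 250 with Hey2, 181 with Hes6 and 121 with Hey1, but 18 with Rbpj and 3 with Hes1. Heyl was most like Sash1 (r = 0.9978), Nrarp (0.9977) and Art3 (0.9974), so that Heyl and Nrarp were among each other's nearest. Nrarp was otherwise nearest to Sash1 and to Ifi203 (0.9973). Hey2 was nearest to Gm6166 (0.9984), Ifi203 (0.9981) and Tgfb2 (0.9979). Hey1, by contrast, was nearest to Cygb (0.9963), Adamts2 (0.9961) and Armcx3 (0.9924), which, like Hey1, were all highest in replicate 3 of the Col6a1+ and replicate 2 of the Col6a1- libraries. The nearest genes of Hes6 were Acsl3 (0.9969), Gm11978 and H2afz (0.9960 each), those of Rbpj were Camsap2 (0.9883), Srpk2 (0.9844) and Tulp4 (0.9840), and those of Hes1 were Gltscr1l (0.9629), Irs2 (0.9608) and Dnmt3a (0.9526).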

How the data were processed

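The authors sequenced QuantSeq 3′ libraries on an Ion Proton, mapped the reads with TopHat2 and Bowtie2 to mm10, counted them per gene and normalized the counts with DESeq. The deposited table holds the log2 of the normalized count plus 1 for each library, which gives whole normalized counts in 100% of values, within a tolerance of 0.001. Whether counting used the strand is not given in the sources used here. Sums of normalized counts were 3039152 to 3425249 per library. From the step between low values, 2568312 to 4519185 reads were estimated for 5 libraries, and Col6a1- replicate 2 was not resolved. A further 6 columns of per-sample values, and the authors' columns of p-values, false discovery rates and fold changes for their own comparison, were not used.

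The log2 values were fitted with limma 3.58.1 (lmFit, eBayes with trend) in R 4.3.3 over the 26402 genes with at least 1 summed normalized count, without covariates and with Benjamini-Hochberg adjustment, and called at an adjusted p under 0.05. Fold changes of low genes are understated by the added 1. Counting intervals are at 95%. The code of the fit without a block was tested on simulated data, in which only genes with a mean of at least 10 were changed. That simulation did not cover the block fits, limma-voom or changed genes near 0 in a subset. Groups and replicate numbers came from the labels. Deviations from the group means correlated at 0.245, 0.125 and 0.144 between libraries of the same number (13515 genes with a mean of at least 10). Between libraries of different numbers they correlated at -0.245 to 0.15, so these correlations did not settle the pairing. The numbers were read as pairs, and the value with a replicate block is given where a call changes. Named genes were the 7 genes, the called genes of each list (at most 5) and the 3 genes most like each of the 7. Hes5, Hes7, Atoh1, Notch1, Notch2, Notch4 and the single cell type markers were named outside this rule, after their values were seen. The 7 genes and all lists were chosen with earlier results of these data known. Promoters are from RefSeq (GRCm38.p6), with Python 3.11.15, NumPy 2.4.6, pandas 2.3.3 and Matplotlib 3.10.9. Alternatives were library size scaling, a mean of at least 10, at least 10 in every library, limma-voom, a pseudocount of 0.1, the replicate block alone and with a mean of at least 10, leaving out each library, and a criterion of an absolute log2 fold change over 1 together with an unadjusted p under 0.05. Proteins were not compared here.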

Additional observations from a re-analysis of the deposited data

How the results depend on the processing

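The direction of Heyl, Hey1, Hey2, Hes6, Nrarp and Rbpj did not turn under any alternative run. Hes1, which was not called, had a log2 fold change of -0.00041 without Col6a1- replicate 2 and up to 0.51 when another library was left out. With the replicate block, limma called 0 of the 7 genes, 0 of the 91 other pathway genes and 0 of all genes in either direction. With the block and a mean of at least 10, it called 871 genes lower, against 517 in the test as reported. Asking for at least 10 normalized counts in every library removed Heyl, Hey1 and Hey2 and left 1 gene called higher (Nrarp). That filter drops genes that are near 0 in a subset, such as Heyl and Hey2. It also drops genes with a single low library, such as Hey1, which had 8 in Col6a1- replicate 1. Over all genes, limma-voom called 798 lower, a pseudocount of 0.1 called 336 lower, and the criterion of an unadjusted p called 1607 higher and 2273 lower. Among the other pathway genes, the pseudocount of 0.1 called 0 lower (5 at an unadjusted p under 0.05) and the unadjusted criterion called 15 higher and 5 lower.

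When 1 library was left out, 11 to 453 genes were called higher and 1 to 442 lower of all genes, 1 to 3 higher and 0 to 1 lower of the 7 genes, and 2 to 8 higher and 0 to 1 lower of the other pathway genes. The lowest counts came without Col6a1- replicate 1, with 11 higher and 1 lower of all genes. Each such fit tested 2 libraries against 3, and the cause of the differences was not tested. Values of 0 and 1 for Heyl and Hey2 in Col6a1- CAFs rest on 0 to 2 reads per library, so the depth sets how large a ratio could be measured there.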
